A study of Homo sapiens with 8 samples.

Results

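The 10 genes described here set the pace of G1, the phase of the cell cycle before DNA replication: 7 inhibitors of cyclin-dependent kinases (CDKN1A, CDKN1B, CDKN1C, CDKN2A, CDKN2B, CDKN2C and CDKN2D) and the 3 D-type cyclins (CCND1, CCND2 and CCND3). They were taken by symbol from a table of read counts with 35238 gene symbols, and all 10 were among the 15085 genes with enough counts to be tested. The cells were MP38, a uveal melanoma (UM) cell line with mutant BAP1, which received romidepsin at 40 nM, quisinostat at 40 nM, mivebresib at 1200 nM or no drug as the control, for 24 h. All 4 groups received 0.1% DMSO, the vehicle. Romidepsin, a cyclic depsipeptide, and quisinostat, a hydroxamate, are inhibitors of histone deacetylases (HDAC). Mivebresib is an inhibitor of BET bromodomains, the protein modules that read acetylated histones. Each group had 2 libraries from separate wells of 1 cell line, so the p-values below measure the spread between wells and not between tumors or lines.

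D-type cyclins bind and activate the kinases CDK4 and CDK6, which start the inactivation of the retinoblastoma protein and so open the way from G1 into S phase. The INK4 inhibitors bind CDK4 and CDK6 and keep D cyclins from activating them, whereas the CIP/KIP inhibitors bind cyclin-CDK complexes and mainly block CDK2. CDKN1A is a textbook target of HDAC inhibitors, and CDKN2A is among the tumor suppressors most often lost in cutaneous melanoma.

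The libraries held 28483235 to 29359024 counts, so depth was nearly equal. Levels are given as CPM, counts scaled to a common library total, with library sizes adjusted by the trimmed mean of M-values (TMM), and differences as log2 fold changes (log2 FC) with their standard error (SE). Genes were called at a Benjamini-Hochberg adjusted p below 0.05 in the quasi-likelihood test of edgeR, fitted over all 8 libraries. Of 7 melanocytic markers, 6 were at 1 CPM or more, and DCT was under 1 CPM. Their summed levels, mostly TYRP1, were 4190 to 5450 CPM in the control, 4740 to 5030 CPM with romidepsin, 3560 to 4110 CPM with quisinostat and 3700 to 3770 CPM with mivebresib. Of the 6, 1 fell with romidepsin, 3 with quisinostat and 4 with mivebresib, with median log2 FCs of -0.05, -0.59 and -1.02; MITF fell by 1.40 with quisinostat and by 1.47 with mivebresib, and SOX10 by 0.92 and 1.93 (edgeR adjusted p at most 8.28e-05). The 3 endothelial markers and 3 of 4 epithelial markers were under 1 CPM in the control, as were 3 of 5 fibroblast and 3 of 4 immune markers. The remaining immune marker, CD68, stood at 65.8 and 83.0 CPM in the control. The summed fibroblast markers ran from 14.1 to 22.1 CPM in the control, 20.2 to 24.6 CPM with romidepsin, 34.6 to 35.4 CPM with quisinostat and 8.19 to 10.6 CPM with mivebresib. These sums were nearly all PDGFRA and COL1A1. PDGFRA had log2 FCs of 0.12, 0.645 and -1.04 with romidepsin, quisinostat and mivebresib (edgeR adjusted p = 0.685, 0.0277 and 0.00535). Those of COL1A1 were 1.51, 2.58 and -0.15 (0.00391, 6.77e-05 and 0.721). The 2 control libraries stood further apart than those of any drug, with a chi-square statistic per degree of freedom of 58.1 against 9.52 to 9.79. The 10 genes leaned with the replicate number: 8 were higher in control replicate 1 than 2, 5 in romidepsin, 9 in quisinostat and 8 in mivebresib replicate 1, against 49.4%, 48.3%, 51.8% and 51.6% of all tested genes. The part of this lean, and that of the markers, in the results was not tested. In bulk libraries, fewer cells of a type and less RNA per cell cannot be told apart.

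Each drug moved a different but overlapping subset of the 10 genes, and every change was modest. CDKN2B and CCND2 rose and CDKN2C fell with every drug. With romidepsin, 3 genes rose (CDKN2A, CDKN2B and CCND2) and 2 fell (CDKN1C and CDKN2C), against 31.0% of all tested genes called, 15.2% higher and 15.8% lower. Quisinostat raised 6 (CDKN1B, CDKN2A, CDKN2B, CDKN2D, CCND2 and CCND3) and lowered 3 (CDKN1A, CDKN2C and CCND1), where 53.2% of all tested genes were called, 28.0% higher and 25.1% lower. With mivebresib, CDKN2B, CCND1 and CCND2 rose and CDKN2C fell, 4 of 10 against 46.2% of all tested genes, 22.2% higher and 24.1% lower. The median log2 FC of the 10 genes was 0.10 for romidepsin, 0.51 for quisinostat and 0.05 for mivebresib, and all tested genes had medians of -0.01, -0.004 and 0.01. None of the 10 passed the log2 FC of 1.5 that the study also asked for, which 4.08% of all tested genes passed for romidepsin, 12.2% for quisinostat and 8.32% for mivebresib. The libraries of drug and control did not overlap in CPM for 7 of the 10 genes for romidepsin, 10 for quisinostat and 5 for mivebresib, against 63.6%, 74.2% and 69.7% of all tested genes. The 3 comparisons share the same control libraries. Tested by limma on the authors' quantile-normalized table, 1 gene of the 10 was called with romidepsin (lower), 1 with quisinostat (higher) and 1 with mivebresib (lower). The share of all tested genes called on that table was not computed, so these counts have no background to be set against. Beside that table and the log2 FC threshold, each difference was recomputed in up to 16 other settings of the tests on counts (tool, scaling, filter, replicate block or libraries in the fit), and the settings counted below are those.

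**Figure D1:**
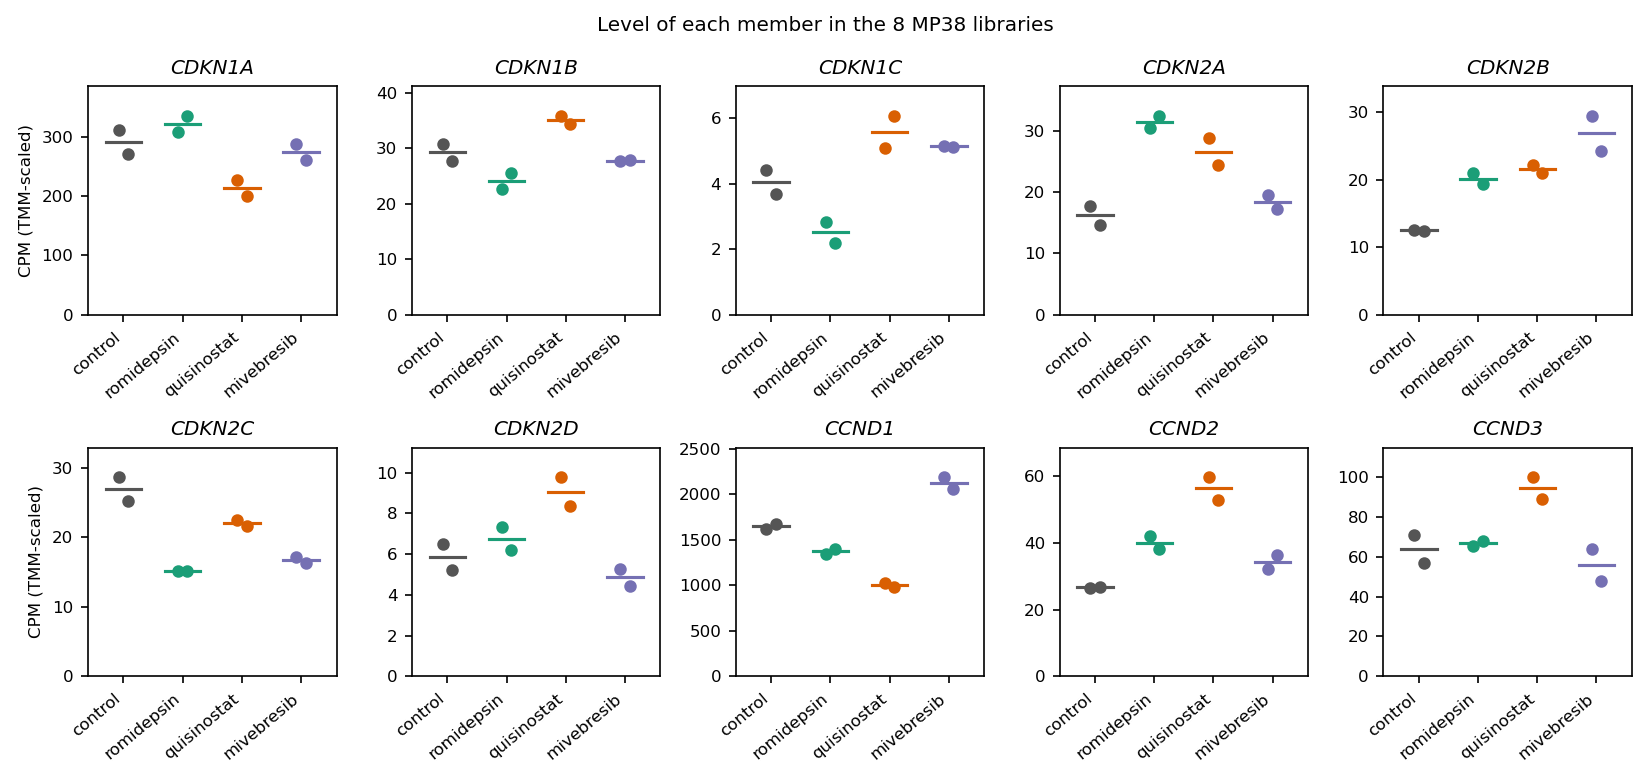
CPM (TMM-scaled, each vertical axis from 0) of the 10 genes in the 8 libraries, by group. Points are single libraries and bars the mean of 2; CCND1 ran from 981 CPM with quisinostat to 2184 CPM with mivebresib, and CDKN2B was higher with each drug than in either control library.

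**Figure D2:**
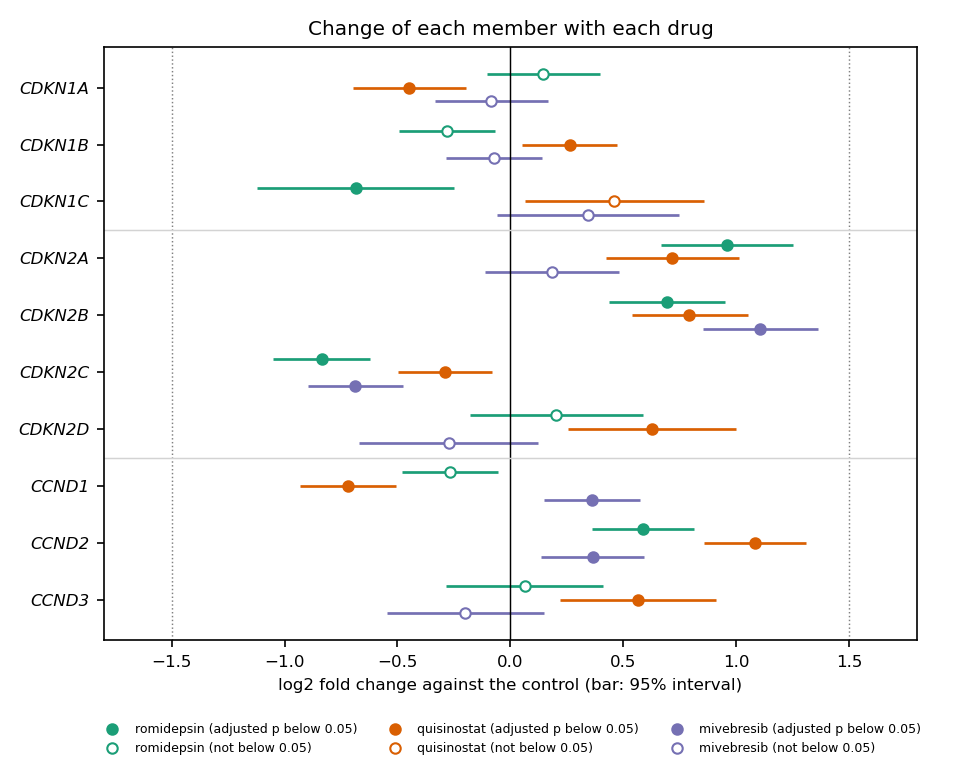
Log2 FC of each gene against the control (horizontal axis) with its 95% interval, for romidepsin, quisinostat and mivebresib. Filled points had an adjusted p below 0.05, open points did not, and dotted lines mark a log2 FC of 1.5 in either direction, which no gene reached.

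CDKN1A, on chr6:36676460-36687339 (GRCh38, plus strand), encodes the inhibitor named CIP1 or WAF1. It was the CIP/KIP gene with the highest level per exon length. Its level was 312 and 271 CPM in the control, 309 and 336 CPM with romidepsin, 227 and 200 CPM with quisinostat, and 288 and 261 CPM with mivebresib. Both quisinostat libraries lay below every other library, while the romidepsin and mivebresib libraries overlapped the control. CDKN1A fell by 0.45 on the log2 scale with quisinostat (SE 0.11, edgeR adjusted p = 0.00864). With romidepsin the log2 FC was 0.15 (95% interval -0.105 to 0.395, adjusted p = 0.343), and with mivebresib -0.09 (95% interval -0.335 to 0.165, adjusted p = 0.555). Neither interval reached a log2 FC of 0.5 in either direction. The quisinostat call was lost without quisinostat replicate 2 (log2 FC -0.37, adjusted p = 0.0748) and with library sizes left unscaled (-0.25, adjusted p = 0.0909). Leaving library sizes unscaled also moved the median log2 FC of all genes with quisinostat to 0.20, so CDKN1A stayed below that median.

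CDKN1B, on chr12:12715058-12722371 (plus strand), encodes KIP1, the inhibitor that holds CDK2 in quiescent cells. It stood at 30.7 and 27.8 CPM in the control, 22.6 and 25.5 CPM with romidepsin, 35.9 and 34.3 CPM with quisinostat, and 27.7 and 27.9 CPM with mivebresib. The romidepsin libraries were the lowest and the quisinostat libraries the highest of the 8, with the mivebresib libraries overlapping the control. CDKN1B rose by 0.26 on the log2 scale with quisinostat (SE 0.09, edgeR adjusted p = 0.0400), the smallest change called against the control. That call was lost in 11 of 16 other settings, with adjusted p-values up to 0.162. The romidepsin log2 FC of -0.28 missed the threshold (95% interval -0.495 to -0.0678, adjusted p = 0.0507) but passed it without control replicate 2 (adjusted p = 0.0154), and the mivebresib log2 FC was -0.07 (adjusted p = 0.547).

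CDKN1C, on chr11:2883213-2885773 (minus strand), encodes KIP2, a growth inhibitor expressed from the maternal allele of an imprinted region. It had the fewest counts of the 10 in the control and with both HDAC inhibitors. Its counts were 125 and 101 in the control, 83 and 64 with romidepsin, 161 and 191 with quisinostat, and 141 and 143 with mivebresib. In CPM these were 4.43 and 3.69, then 2.85 and 2.20, 5.09 and 6.08, and 5.16 and 5.14. Romidepsin libraries lay below the control, and those of the other drugs above it. CDKN1C fell by 0.68 on the log2 scale with romidepsin (SE 0.19, edgeR adjusted p = 0.0264). That call was lost without control replicate 1 (log2 FC -0.52, adjusted p = 0.120), without romidepsin replicate 2 (-0.51, adjusted p = 0.147) and with only the 4 libraries compared (-0.66, adjusted p = 0.0937). With quisinostat the log2 FC was 0.46 (95% interval 0.0631 to 0.857, adjusted p = 0.0519). It passed the threshold in 4 of 15 other settings: limma-voom (adjusted p = 0.0467), unscaled library sizes (0.0138), upper-quartile factors (0.0231) and without control replicate 1 (0.0372). With mivebresib the log2 FC was 0.34 (95% interval -0.0612 to 0.746, adjusted p = 0.146).

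The promoter of CDKN1A is known for its GC boxes, which bind SP1 and SP3. The RefSeq promoters (GRCh38.p14) covered 7 of the 10 genes with 12 start sites; those of CDKN1C, CCND1 and CCND2 were not used here. In the 250 bases before each start, 9 of the 12 held at least 1 GC box (GGGCGG on either strand), as did 42.6% of 35116 promoters. The median GC content of all promoters was 58.0%, and that of the CDKN1A window was 76.4%, with 4 GC boxes. The stretch printed here is the part outside any annotated CDKN1A exon, chr6:36678464-36678657 on the plus strand, with GC boxes in capitals; the other 2 boxes lay nearer to the start.
CDKN1A: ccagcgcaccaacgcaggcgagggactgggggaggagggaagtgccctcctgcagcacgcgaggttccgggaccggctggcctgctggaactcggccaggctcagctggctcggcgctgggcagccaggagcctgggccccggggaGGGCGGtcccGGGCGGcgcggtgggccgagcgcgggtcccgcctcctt

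Among the INK4 inhibitors, CDKN2A and CDKN2B lie side by side on chromosome 9, 7602 bases apart on the minus strand. CDKN2A spans chr9:21967753-21995301 and encodes INK4A, and from another first exon the unrelated protein ARF; counts per gene pool both transcripts. CDKN2A stood at 17.8 and 14.6 CPM in the control, 30.5 and 32.4 CPM with romidepsin, 28.8 and 24.4 CPM with quisinostat, and 19.5 and 17.3 CPM with mivebresib. All 4 HDAC inhibitor libraries lay above all others, and the mivebresib libraries overlapped the control. It rose by 0.96 on the log2 scale with romidepsin (SE 0.13, edgeR adjusted p = 0.00104), the largest change of the 10 genes with that drug. The rise with quisinostat was 0.72 (SE 0.13, adjusted p = 0.00176). Both calls held in all 16 other settings. With mivebresib the log2 FC was 0.18 (95% interval -0.114 to 0.481, adjusted p = 0.282).

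CDKN2B spans chr9:22002903-22009363 and encodes INK4B, which TGF-beta signaling is known to induce. It stood at 12.5 and 12.5 CPM in the control, 20.9 and 19.4 CPM with romidepsin, 22.2 and 21.0 CPM with quisinostat, and 29.4 and 24.3 CPM with mivebresib. Every treated library lay above both control libraries, and both mivebresib libraries lay above those of the HDAC inhibitors. CDKN2B rose by 0.69 on the log2 scale with romidepsin (SE 0.11, edgeR adjusted p = 0.00267). With quisinostat it rose by 0.79 (SE 0.11, adjusted p = 0.000481), and with mivebresib by 1.11 (SE 0.11, adjusted p = 9.95e-05). These 3 calls held in all 16 other settings. Between drugs, CDKN2B was higher with mivebresib than with romidepsin by 0.41 (adjusted p = 0.0126) and than with quisinostat by 0.31 (0.0338). The difference from romidepsin was lost in 2 of 16 other settings and that from quisinostat in 8. With unscaled library sizes the log2 FC against quisinostat was 0.13 (adjusted p = 0.31). MTAP, the nearest tested gene on the far side of CDKN2A, fell by 0.29 with romidepsin (adjusted p = 0.0239) and by 0.28 with quisinostat (0.0153), and its log2 FC was 0.19 with mivebresib (0.0715).

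The antisense gene CDKN2B-AS1 (ANRIL) and AL359922.1 overlap both genes on the opposite strand and were not analysed here. Of the CDKN2A sequence, 7.05% of all stretches of 30 bases also occurred in CDKN2B-AS1, and 1.83% of those of CDKN2B occurred in CDKN2A. Whether the counting used strand is not given in the sources used here, so reads could be shared with the antisense transcripts. The sequences before the distal CDKN2A start, which makes ARF (chr9:21995325-21995574), and before CDKN2B (chr9:22009364-22009555, outside its exons), both on the minus strand, are shown because these neighbors are the INK4 genes that rose with both HDAC inhibitors. The first held no GC box and the second 2, in capitals. The window before the other CDKN2A start, chr9:21974858-21975107, held 1 GC box. It is not shown, and 241 of its bases lie within annotated CDKN2A exons.
CDKN2A: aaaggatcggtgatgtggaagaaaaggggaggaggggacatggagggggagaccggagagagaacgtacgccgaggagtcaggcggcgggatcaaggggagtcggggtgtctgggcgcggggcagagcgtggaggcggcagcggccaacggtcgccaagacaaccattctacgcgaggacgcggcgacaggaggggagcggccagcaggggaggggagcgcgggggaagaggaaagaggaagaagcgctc
CDKN2B: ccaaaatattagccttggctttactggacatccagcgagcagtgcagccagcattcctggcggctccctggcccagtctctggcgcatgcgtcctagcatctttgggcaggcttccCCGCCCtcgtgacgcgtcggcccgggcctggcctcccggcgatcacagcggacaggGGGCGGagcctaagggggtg

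CDKN2C, on chr1:50960745-50974633 (plus strand), encodes INK4C, and it moved the opposite way to CDKN2B. It stood at 28.6 and 25.2 CPM in the control, 15.1 and 15.1 CPM with romidepsin, 22.5 and 21.6 CPM with quisinostat, and 17.2 and 16.3 CPM with mivebresib. Both control libraries lay above every treated library, and the romidepsin libraries were the lowest. CDKN2C fell by 0.84 on the log2 scale with romidepsin (SE 0.09, edgeR adjusted p = 0.000477) and by 0.69 with mivebresib (SE 0.09, adjusted p = 0.000481), and both calls held in all 16 other settings. With quisinostat it fell by 0.29 (SE 0.09, adjusted p = 0.0258). The quisinostat call was lost in 7 of 16 other settings, among them each omission of control replicate 1 (adjusted p = 0.105), quisinostat replicate 1 (0.0902) and quisinostat replicate 2 (0.128), and with unscaled library sizes its log2 FC was -0.09. The sequence before its first start, chr1:50960495-50960744, held no GC box and had a GC content of 45.6%. The windows before its other starts held 5 GC boxes at 77.2% GC and 1 at 48.8% GC, and lie wholly within annotated CDKN2C exons, so only the first is shown.
CDKN2C: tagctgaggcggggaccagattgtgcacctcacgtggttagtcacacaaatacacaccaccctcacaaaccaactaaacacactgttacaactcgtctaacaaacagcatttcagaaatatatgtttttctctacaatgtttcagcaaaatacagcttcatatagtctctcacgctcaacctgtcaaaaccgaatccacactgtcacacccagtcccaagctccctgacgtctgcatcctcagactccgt

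CDKN2D, on chr19:10566462-10569059 (minus strand), encodes INK4D. Its counts were 184 and 143 in the control, 213 and 180 with romidepsin, 309 and 263 with quisinostat, and 144 and 124 with mivebresib. In CPM these were 6.52 and 5.22, then 7.31 and 6.20, 9.78 and 8.37, and 5.27 and 4.46. Only the quisinostat libraries stood clear of the control. CDKN2D rose by 0.63 on the log2 scale with quisinostat (SE 0.16, edgeR adjusted p = 0.0114), a call lost without quisinostat replicate 1 (log2 FC 0.52, adjusted p = 0.0811). The log2 FC was 0.20 with romidepsin (95% interval -0.181 to 0.585, adjusted p = 0.389) and -0.27 with mivebresib (95% interval -0.669 to 0.124, adjusted p = 0.230).

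CCND1, on chr11:69641087-69654474 (plus strand), encodes cyclin D1, a target of MAPK signaling. It had the highest level per exon length of the 10 genes, and stood at 1622 and 1677 CPM in the control, 1346 and 1397 CPM with romidepsin, 1023 and 981 CPM with quisinostat, and 2184 and 2055 CPM with mivebresib. No 2 groups overlapped, in the order mivebresib, control, romidepsin, quisinostat. CCND1 fell by 0.72 on the log2 scale with quisinostat (SE 0.09, edgeR adjusted p = 0.000311), which held in all 16 other settings, and rose by 0.36 with mivebresib (SE 0.09, adjusted p = 0.0126). The rise with mivebresib was lost without mivebresib replicate 1 (log2 FC 0.31, adjusted p = 0.0840) and with only the 4 libraries compared (0.37, adjusted p = 0.105). With romidepsin the log2 FC of -0.27 missed the threshold (95% interval -0.479 to -0.0533, adjusted p = 0.0601), but passed it in DESeq2 (adjusted p = 0.0112), without control replicate 1 (0.0458) and without control replicate 2 (0.0487). LTO1 overlaps the end of CCND1 on the opposite strand and shares 9.16% of its stretches of 30 bases.

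CCND2, on chr12:4273772-4305350 (plus strand), encodes cyclin D2. It stood at 26.6 and 26.7 CPM in the control, 41.9 and 38.04 CPM with romidepsin, 59.6 and 52.96 CPM with quisinostat, and 32.3 and 36.2 CPM with mivebresib. All treated libraries lay above the control, and no 2 groups overlapped. CCND2 rose by 0.59 on the log2 scale with romidepsin (SE 0.10, edgeR adjusted p = 0.00316), by 1.08 with quisinostat (SE 0.10, adjusted p = 4.64e-05) and by 0.36 with mivebresib (SE 0.10, adjusted p = 0.0165). The calls for the HDAC inhibitors held in all 16 other settings, and that for mivebresib was lost without mivebresib replicate 2 (log2 FC 0.28, adjusted p = 0.118). Of the stretches of 30 bases in CCND2, 13.5% also occurred in the overlapping AC008012.1 on the same strand. AC008012.1 was not found by symbol among the counted genes, and the counting annotation is not given. Any effect of this overlap on the CCND2 count is therefore not known.

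CCND3, on chr6:41934933-42050357 (minus strand), encodes cyclin D3. It stood at 71.2 and 56.8 CPM in the control, 65.6 and 68.1 CPM with romidepsin, 100 and 89.1 CPM with quisinostat, and 63.8 and 47.7 CPM with mivebresib. Only the quisinostat libraries stood apart from the control. CCND3 rose by 0.56 on the log2 scale with quisinostat (SE 0.15, edgeR adjusted p = 0.0133), a call lost without quisinostat replicate 1 (log2 FC 0.49, adjusted p = 0.0801). The log2 FC was 0.06 with romidepsin (95% interval -0.285 to 0.410, adjusted p = 0.780) and -0.20 with mivebresib (95% interval -0.548 to 0.150, adjusted p = 0.317).

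Romidepsin and quisinostat were given at the same dose for the same time. The study reports romidepsin as its most potent compound against UM cell viability, so equal doses need not be equally effective. A difference between the drugs therefore cannot be told apart from one of effective dose. Between them 7 of the 10 genes differed, 5 higher and 2 lower with quisinostat, against 35.6% of all tested genes, 21.0% higher and 14.6% lower. No difference passed a log2 FC of 1.5, as 5.59% of all tested genes did, and the libraries of the 2 drugs did not overlap for any of the 10, as for 73.5% of all tested genes. CDKN1C differed most, 1.14 higher on the log2 scale with quisinostat (SE 0.18, edgeR adjusted p = 0.00207). CDKN1B was higher by 0.54 (adjusted p = 0.00282), CDKN2C by 0.55 (0.00287), CCND2 by 0.49 (0.00522) and CCND3 by 0.50 (0.0325). CDKN1A was lower with quisinostat, with a log2 FC of -0.59 (SE 0.11, adjusted p = 0.00410), as was CCND1, with -0.45 (SE 0.09, adjusted p = 0.00653). Of these 7, CDKN1A, CDKN1B, CDKN1C and CDKN2C kept the call in all settings of the tests on counts in which they were fitted, 15 for CDKN1C and 16 for each of the others. On the quantile-normalized table none of the 10 was called, 0 higher and 0 lower, and the share of all tested genes called there was not computed. The CCND1 difference was lost without quisinostat replicate 2 (adjusted p = 0.0533) and without romidepsin replicate 2 (0.0621), and that of CCND2 without quisinostat replicate 1 (0.0625) and without romidepsin replicate 2 (0.0549). The CCND3 difference was lost without any 1 of the 4 libraries (adjusted p-values of 0.0860 to 0.190).

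The other 3 inhibitors did not differ between the HDAC inhibitors beyond the threshold. The log2 FC of quisinostat against romidepsin was -0.24 for CDKN2A (95% interval -0.525 to 0.0402, edgeR adjusted p = 0.164), 0.10 for CDKN2B (-0.146 to 0.349, adjusted p = 0.505) and 0.43 for CDKN2D (0.0579 to 0.794, adjusted p = 0.0707). The INK4 pair on chromosome 9 thus had intervals within 0.53 of no difference, while that of CDKN2D reached 0.79. CDKN2D passed the threshold in 5 of 16 other settings, among them without control replicate 1 (adjusted p = 0.0399) or 2 (0.0318), and CDKN2A in 2, without control replicate 1 (0.0377) and with only the 4 libraries compared (0.0270).

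Mivebresib was given at another dose, and its libraries are set beside those of the HDAC inhibitors only as measured. Against romidepsin 5 of the 10 genes differed, 3 higher and 2 lower, where 48.9% of all tested genes did, 23.7% higher and 25.2% lower. Against quisinostat 9 differed, 3 higher and 6 lower, where 57.7% did, 26.2% higher and 31.5% lower. None passed a log2 FC of 1.5 in either comparison, as 9.22% and 14.3% of all tested genes did. The libraries did not overlap for 10 genes against romidepsin and 9 against quisinostat, as for 77.5% and 82.1% of all tested genes. CCND1 was 1.08 higher on the log2 scale with mivebresib than with quisinostat (SE 0.09, edgeR adjusted p = 2.86e-05) and 0.63 higher than with romidepsin (SE 0.09, adjusted p = 0.000734). CDKN2A was the reverse, with log2 FCs of -0.53 against quisinostat (adjusted p = 0.00671) and -0.78 against romidepsin (adjusted p = 0.00121). The first was lost without quisinostat replicate 1 (adjusted p = 0.0567) and without mivebresib replicate 2 (0.0608). CDKN1C differed most from romidepsin, with a log2 FC of 1.03 (SE 0.19, adjusted p = 0.00202). Against quisinostat, CDKN2D had a log2 FC of -0.90 (SE 0.17, adjusted p = 0.00179) and CCND3 one of -0.76 (SE 0.15, adjusted p = 0.00270).

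Levels were set against each other within each family as CPM per kb of exon, counting all annotated exons of a gene once. Summed over the 3 D cyclins, this level was 352 and 361 in the control, 296 and 306 with romidepsin, 237 and 226 with quisinostat, and 468 and 439 with mivebresib. CCND1 made up 95.5% and 96.3% of it in the control, 94.2% and 94.4% with romidepsin, 89.2% and 89.9% with quisinostat, and 96.7% and 97.0% with mivebresib. The summed D cyclin level thus followed CCND1, although CCND2 and CCND3 were both higher with quisinostat than in the control.

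In the CIP/KIP family CDKN1A made up 88.9% and 88.7% of the summed level in the control, 91.7% and 91.7% with romidepsin, 83.4% and 81.8% with quisinostat, and 88.8% and 87.7% with mivebresib. The summed INK4 level was 20.2 and 17.5 in the control and 25.4 and 22.9 with quisinostat, with the other libraries between 17.9 and 21.6. CDKN2C supplied 42.8% and 43.4% of it in the control, 21.1% and 21.7% with romidepsin, 26.7% and 28.4% with quisinostat, and 25.3% and 27.6% with mivebresib. The share of CDKN2B was 15.3% and 17.5% in the control and 35.5% and 33.5% with mivebresib. The INK4 order depends on the length used, because CDKN2A has 4329 bases of exon but a longest transcript of 1283 bases. By longest transcript CDKN2A was the leading INK4 gene in the control, at 44.0% and 42.2%, ahead of CDKN2C at 31.3% and 32.3%. The differences of the summed INK4 level between groups depend on the length as well. By longest transcript CDKN2A alone stood at 12.6 CPM per kb in the control, 24.5 with romidepsin, 20.7 with quisinostat and 14.3 with mivebresib. By all exons it stood at 3.74, 7.26, 6.14 and 4.24 in the same order.

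**Figure D3:**
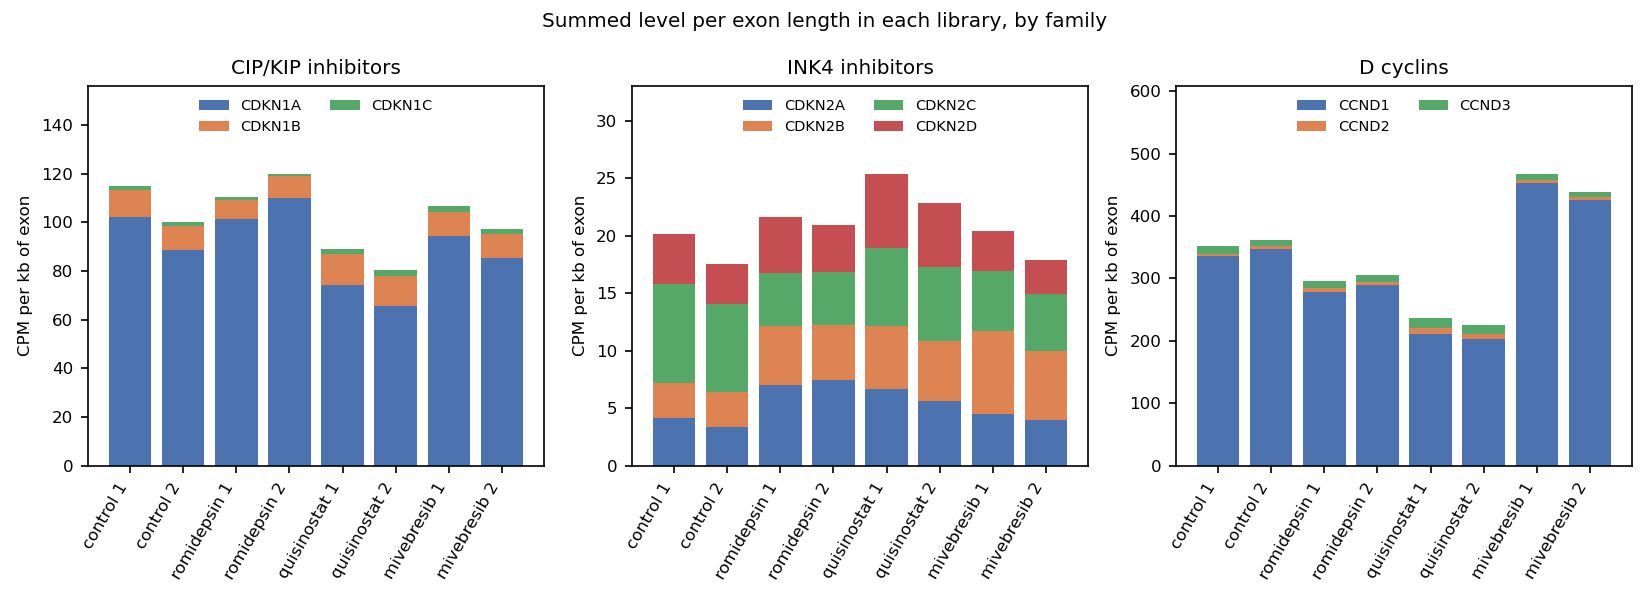
Summed level per exon length (CPM per kb of exon, vertical axes from 0) in each of the 8 libraries, stacked by gene, for the CIP/KIP inhibitors, the INK4 inhibitors and the D cyclins. CDKN1A and CCND1 fill most of their families in every library, while CDKN2C holds 42.8% and 43.4% of the INK4 level in the control and at most 28.4% with any drug.

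Of 9 G1 kinases, E cyclins and activators, 2 rose and 4 fell with romidepsin, 2 rose and 5 fell with quisinostat, and 1 rose and 4 fell with mivebresib, with median log2 FCs of -0.14, -0.61 and -0.17. Of all tested genes 31.0%, 53.2% and 46.2% were called in the same order, the background for these and the following lists, and 5 of 9 with mivebresib lies near it. Those that rose were MNAT1 and CCNH, both parts of the kinase that activates other CDKs. MNAT1 had log2 FCs of 0.75, 0.65 and 0.41 (edgeR adjusted p = 0.00267, 0.00233 and 0.0248). CCNH had 0.27 (0.0324) and 0.49 (0.00103) for the HDAC inhibitors. CDK7, a further part of that kinase, was not called with any drug, with 0.17 (0.345), 0.31 (0.0776) and 0.29 (0.106). CDK6, a partner of the D cyclins, had log2 FCs of -0.14 (edgeR adjusted p = 0.194), -0.61 (0.00026) and -0.70 (0.000157) in the same order. CDK4, the other such partner, fell by 0.58, 1.03 and 0.60 (adjusted p = 0.00794, 0.000183 and 0.00394). CDK2, the main target of CIP/KIP inhibitors, fell by 0.28, 1.12 and 1.43 on the log2 scale (adjusted p = 0.0432, 2.36e-05 and 1.03e-05). The E cyclin CCNE2 stood at 23.4 and 24.7 CPM in the control, 7.79 and 7.61 CPM with romidepsin, 7.21 and 6.40 CPM with quisinostat, and 22.1 and 20.6 CPM with mivebresib. It fell by 1.64 with romidepsin (adjusted p = 6.08e-05) and by 1.82 with quisinostat (4.27e-06), and had a log2 FC of -0.17 with mivebresib (0.166). CDC25A, the phosphatase that activates CDK2, fell by 1.24, 1.48 and 1.31 (adjusted p = 0.000169, 1.58e-05 and 4.15e-05). Of the 3 RB family genes, the substrates of these kinases, 1 fell with romidepsin, 1 rose and 1 fell with quisinostat, and 1 fell with mivebresib. RB1 itself had log2 FCs of -0.05, -0.11 and -0.02 (adjusted p = 0.636, 0.270 and 0.869).

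Of 14 genes that turn over the inhibitors and D cyclins, 2 rose and 4 fell with romidepsin, 1 rose and 9 fell with quisinostat, and 3 rose and 5 fell with mivebresib, with median log2 FCs of -0.12, -0.34 and -0.06. DTL, the substrate receptor that directs CDKN1A protein to degradation, fell by 1.35, 2.00 and 0.53 on the log2 scale (edgeR adjusted p = 8.84e-05, 2.60e-06 and 0.00199). CKS1B, which with SKP2 targets CDKN1B protein, fell by 0.94, 1.52 and 0.57 (adjusted p = 0.00263, 8.80e-05 and 0.0150). Others rose: FBXW7, which targets cyclin E protein, by 0.54 with romidepsin (adjusted p = 0.00814) and 0.55 with quisinostat (0.00373), and with mivebresib RNF123 by 0.78 (0.000513) and SKP1 by 0.55 (0.00273). The genes that rose in these lists were named after their values were seen.

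Known transcriptional regulators of the 10 genes split in both directions, 4 of 12 higher and 5 lower with romidepsin, 3 and 7 with quisinostat, and 3 and 5 with mivebresib, with median log2 FCs of -0.06, -0.29 and -0.13. MYC, a repressor of CDKN1A and CDKN2B, stood at 102 and 101 CPM in the control, 118 and 121 CPM with romidepsin, 62.0 and 61.8 CPM with quisinostat, and 176 and 173 CPM with mivebresib. Its log2 FCs were 0.24, -0.71 and 0.78 (edgeR adjusted p = 0.0343, 7.39e-05 and 5.63e-05). SMAD3, which carries TGF-beta signals to CDKN2B, had log2 FCs of 0.09 (adjusted p = 0.358), -1.01 (1.31e-05) and -0.47 (0.000908). EZH2, the Polycomb methyltransferase known to silence the CDKN2A locus, had log2 FCs of -0.37 (0.00714), -0.70 (0.000121) and -0.14 (0.153). The other Polycomb genes of the list did not all move with EZH2. CBX7 had log2 FCs of 0.32 (0.0776), 0.83 (0.000581) and -0.69 (0.00255). Those of BMI1 were -0.32 (0.0287), -0.21 (0.0817) and -0.48 (0.00270).

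All 10 proliferation markers fell with romidepsin and all 10 with quisinostat, and 8 of 10 with mivebresib, with median log2 FCs of -0.71, -1.13 and -0.68. CCNA2, the cyclin of S phase, fell by 1.08, 1.47 and 1.13 on the log2 scale (edgeR adjusted p = 9.01e-05, 3.63e-06 and 1.50e-05), and PLK1, a mitotic kinase, by 0.87, 1.44 and 1.17 (adjusted p = 0.000125, 2.81e-06 and 9.12e-06). These falls stood beside both the rises of CDKN2B and CCND2 and the fall of CDKN2C, and their part in those changes was not tested.

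**Figure D4:**
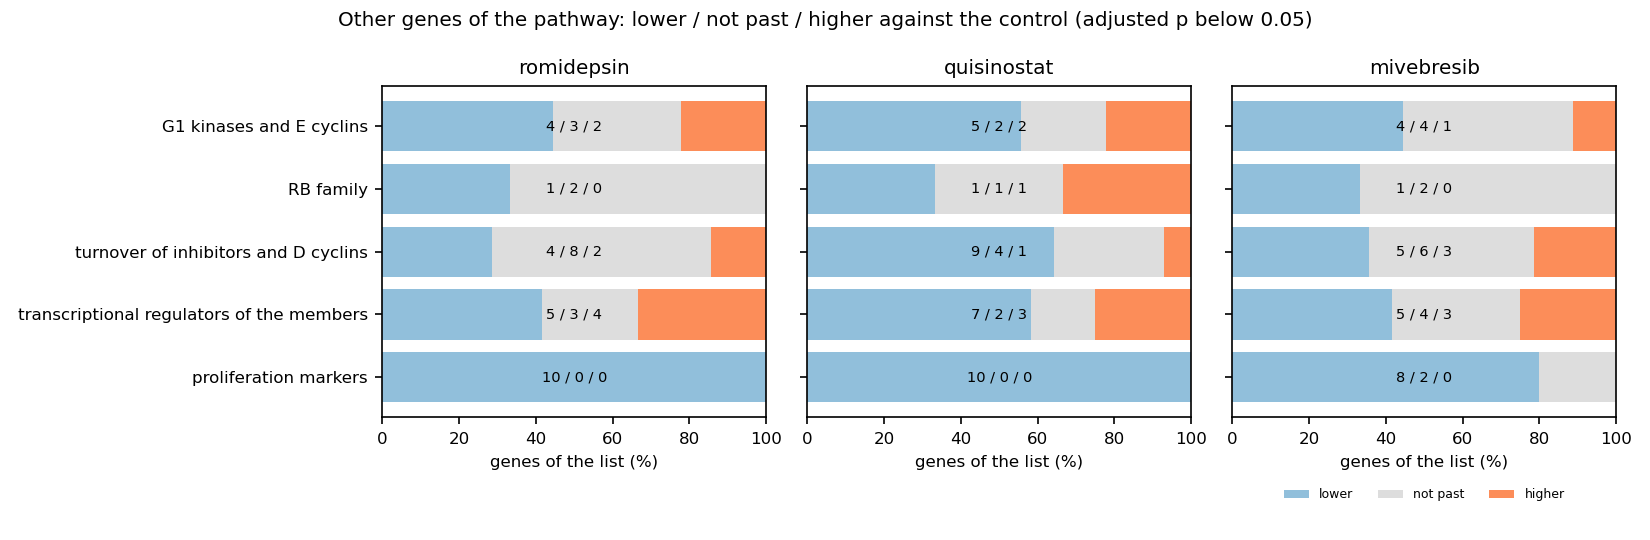
Share of each list of pathway genes (horizontal axis, percent of the list) that was lower (blue), not past the threshold (grey) or higher (orange) against the control at an adjusted p below 0.05, for romidepsin, quisinostat and mivebresib. Numbers in the bars give the genes lower, not past and higher; all 10 proliferation markers were lower with romidepsin and with quisinostat.

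The genes whose pattern was most like the leading member of each family were sought by Pearson's r of log2 CPM over the 8 libraries, over the 9839 tested genes whose average log2 CPM was 3 or more. For CDKN1A they were C10orf2 (r = 0.982), UAP1 (0.980) and AMD1 (0.980). Those for CDKN2A, the INK4 gene with the highest mean CPM over the 8 libraries though not in the control or with mivebresib, were DNAJB4 (0.986), PELI1 (0.978) and SAV1 (0.974), and those for CCND1 were ABCF1, AXIN1 and ALDH16A1 (0.994 each). The 8 libraries form 4 groups, so these values mostly describe 4 group levels.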

How the data were processed

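RNA sequencing of MP38 cells gave 8 libraries in 4 groups of 2, assigned from the sample labels. The authors analysed the reads with BioJupies, and the submitters' processing notes name the genome build hg38; the aligner, annotation and strand setting are not given in the sources used here. Counts per gene symbol were deposited without normalization. The table of log10 values from the authors equals log10(CPM + 1) of those counts, and the third table holds a quantile-normalized score, deposited on a scale that is not named, so it was used for calls only.

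The counts entered edgeR 4.0.16 under R 4.3.3 (filterByExpr by group, TMM, 1 quasi-likelihood model of all 8 libraries, Benjamini-Hochberg adjustment over 15085 genes). SEs and 95% intervals used the moderated variance, and log2 CPM a prior count of 2. The biological coefficient of variation was 0.0938. The test was checked on simulated counts. With 2 libraries a group, replicate number limits precision, and for CDKN1C and CDKN2D, with 64 to 309 counts a library, depth does too. Alternatives were DESeq2 1.42.0, limma-voom (limma 3.58.1), limma on the quantile-normalized table, other scalings and filters, only the 4 libraries compared, a replicate block, a crossed block (added after seeing the data), the study's log2 FC threshold, each library left out, and longest transcript lengths. Coordinates and exon lengths came from GENCODE 29 on GRCh38 and promoters from RefSeq; stretches of 30 bases were compared between annotated transcripts. Figures were drawn with matplotlib 3.10.9.

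All 10 genes are described. Up to 4 genes of each other list were chosen by the smallest adjusted p in any drug comparison; not all are printed, and 1 gene and 1 list are not reported here. The members and lists were chosen with earlier results of these data known.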

Additional observations from a re-analysis of the deposited data

Results flagged for a closer look

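CCND1 moved in opposite directions with 2 of the drugs: it was 1.08 higher on the log2 scale with mivebresib than with quisinostat (SE 0.09, edgeR adjusted p = 2.86e-05), having fallen by 0.72 with quisinostat and risen by 0.36 with mivebresib against the same control libraries. The difference was past the threshold in all 16 other settings of the tests on counts. The doses differed, 1200 nM against 40 nM.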

How the results depend on the processing

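With 2 libraries a group, each library carries weight in every call. Of 954 log2 FCs recomputed for the 10 genes, 865 kept their direction and side of the threshold, 64 fell short of it, 21 newly passed it and 4 changed sign. The 4 were never called: over single libraries left out, the mivebresib log2 FC ran from -0.186 to 0.0201 for CDKN1A and from -0.149 to 0.00193 for CDKN1B, that of CCND3 with romidepsin from -0.0927 to 0.258, and that of CDKN1C between mivebresib and quisinostat from -0.248 to 0.0271. The signs changed without control replicate 1, control replicate 1, control replicate 2 and quisinostat replicate 2, in that order. The cause was not tested.

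Of the 10 genes, in DESeq2, limma-voom and without a filter on low counts, 1 was lower with mivebresib than romidepsin. With library sizes unscaled, 1 was lower with quisinostat than the control and 1 higher with mivebresib than quisinostat, and with upper-quartile factors the latter count was also 1. Requiring a mean CPM of 5, which left CDKN1C untested, gave 1 lower with romidepsin than the control. With only the 4 libraries compared, 1 was lower with romidepsin than the control and 4 with mivebresib than romidepsin. With the log2 FC threshold of 1.5, every count was 0. Limma on the quantile-normalized table called 0 higher and 1 lower with romidepsin, 1 higher and 0 lower with quisinostat, and 0 higher with mivebresib. It called 0 higher and 0 lower for quisinostat against romidepsin, and 1 higher and 0 lower for mivebresib against romidepsin. For mivebresib against quisinostat it called 1 higher and 1 lower. It gave no log2 FC, and the share of all tested genes it called was not computed.

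Leaving out each library in turn gave 3 to 3 genes higher and 1 to 4 lower with romidepsin, 3 to 7 and 1 to 3 with quisinostat, 2 to 3 and 1 to 1 with mivebresib, 3 to 6 and 1 to 3 for quisinostat against romidepsin, 2 to 3 and 1 to 4 for mivebresib against romidepsin, and 1 to 3 and 4 to 6 for mivebresib against quisinostat. The lone library left in a group was assumed to vary like the other groups.

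Whether the replicate numbers pair the samples is not known. Deviations of same-numbered libraries correlated at -0.162 for romidepsin and control, 0.146 for quisinostat and control and 0.158 for mivebresib and control. Between drugs they correlated at -0.12 for quisinostat and romidepsin, -0.0704 for mivebresib and romidepsin and 0.064 for mivebresib and quisinostat. Each pair with romidepsin was thus negative and each pair without it positive, and the cause was not tested. With the replicate number as a block, 3 genes were higher and 2 lower with romidepsin, 5 and 3 with quisinostat and 3 and 1 with mivebresib, and calls over all genes went from 4670 to 4539, 8024 to 7954 and 6970 to 6916. With the romidepsin numbers crossed, a choice made after seeing the data, 4 of the 10 genes were lower with romidepsin than the control and 4 with mivebresib than romidepsin, and calls over all genes were more in each comparison: 6548 for romidepsin, 9322 for quisinostat and 8258 for mivebresib against the control, 6883 for quisinostat against romidepsin, and 8556 and 9817 for mivebresib against romidepsin and quisinostat. Shares within a family by longest transcript moved by more than the spread of replicates in 34 of 40 cases.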

Other observations

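Beside CDKN1B lies GPR19, an orphan receptor gene 18851 bases away on the opposite strand. Its mean level was 2.18 CPM in the control, 13.2 CPM with romidepsin, 15.7 CPM with quisinostat and 0.126 CPM with mivebresib, with log2 FCs of 2.60, 2.85 and -4.06 (edgeR adjusted p = 0.000125, 1.47e-05 and 0.000147). CDKN1B itself moved by no more than 0.28 with any drug. TAF8, a subunit of a general transcription factor, starts 156 bases from CCND3 on the opposite strand. It had log2 FCs of -0.83 with romidepsin (adjusted p = 0.00223), -0.31 with quisinostat (0.067) and 0.51 with mivebresib (0.00863), where those of CCND3 were 0.06, 0.56 and -0.20. GPR19 and TAF8 were singled out after their values were seen.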
